A study of Rattus norvegicus with 24 samples.

Results

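Col4a1 (ENSRNOG00000016281) and Utrn (ENSRNOG00000011058) were followed across the 4 treatment groups, as 2 of the 32883 genes in the count table. Both were chosen from measured values. They stand in the lists of differentially expressed genes that the study obtained with the DESeq2 Wald test in the C versus RS3 and in the C versus RS7 group comparisons, so their levels in those comparisons are given here as a description, without a test. Recomputed with DESeq2 on the same rats, the adjusted p that chose the members in C versus RS3 was 0.0379 for both genes, where 36 genes lay at or below 0.05, the last inside at 0.0486 and the first outside at 0.0515. In C versus RS7 it was 0.0493 for Col4a1 and 0.0491 for Utrn, at positions 398 and 391 of 405 genes, with the last gene inside at 0.0498 and the first outside at 0.0502. Those lists held 0.648% and 2.73% of the genes for which DESeq2 gave an adjusted p.

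The rats were young adult male Sprague-Dawley rats from Envigo. All were handled and placed in sound-attenuating chambers daily for 7 days, and a tail nick for blood was made after the last session. The C group heard only background noise (0 loud noise exposures), the AS (acute stress) group had 1 exposure, on the last day, and the RS3 and RS7 (repeated stress) groups had 3 and 7 daily exposures. Poly(A) RNA of a block holding the rostral posterior hypothalamic (rPH) region was sequenced 24 h after the last session, from 6 rats per group. The study left out 1 library per group for quality, and the 20 retained rats, 5 per group, are used unless said otherwise. Each retained rat had 8087697 to 16947298 counted reads (median 12385781).

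Type IV collagen is the network-forming collagen of basement membranes, the sheets of matrix that in the brain surround blood vessels and underlie the glial limit. Col4a1 and Col4a2 encode the chains of its commonest trimer, which is assembled in the endoplasmic reticulum after prolyl hydroxylation and is linked outside the cell to laminin networks by nidogen and perlecan. Utrn encodes utrophin, the homologue of dystrophin, a large protein on the inner face of the plasma membrane that ties the actin cytoskeleton to dystroglycan, a receptor for laminin and agrin. Utrophin is therefore not a component of the basement membrane itself but part of a complex that binds to it, found in vascular endothelium and in astrocytes among other cells.

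Col4a1 and Col4a2 are transcribed in opposite directions from starts that lie close together, and the stretch between them is shown because it lies before the start of both genes. In the GRCr8 rat assembly, from RefSeq, the start positions on chromosome 16 are 84885597 for Col4a1 and 84885520 for Col4a2, with 76 bases between them. The count table was made on the older rn6 assembly, so these positions are not those of the table. The stretch is printed on the plus strand, the strand of Col4a1 (chr16:84885521-84885596), with a match to the GC box GGGCGG, here on the opposite strand, in capitals.
Col4a1 and Col4a2, between the starts: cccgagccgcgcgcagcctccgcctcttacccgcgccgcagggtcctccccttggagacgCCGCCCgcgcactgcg
Of these bases 79.0% are G or C. A GC box on either strand was found in the last 76 bases before the start of 18.1% of the 33469 promoters in the RefSeq table, so the match is common. The 250 bases before the start of Utrn (GRCr8 chr1:9044488-9044737, minus strand) are shown beside it, with a match to CCAAT in capitals.
Utrn, before the start: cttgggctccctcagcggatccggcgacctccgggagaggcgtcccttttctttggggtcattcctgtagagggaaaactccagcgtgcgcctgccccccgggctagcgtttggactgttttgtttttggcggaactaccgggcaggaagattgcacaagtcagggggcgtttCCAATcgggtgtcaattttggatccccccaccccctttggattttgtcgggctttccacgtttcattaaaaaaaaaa
The G or C content was 55.2% here. CCAAT or its reverse complement ATTGG was found in 34.0% of all promoters over the same length. The Utrn stretch held no GC box, and neither stretch held TATAAA or TTCCGG, the latter being the core of the N box known from the utrophin promoter, on either strand. The matches describe the letters in these windows.

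The level of Col4a1 is given as CPM, its counts relative to a library size scaled by the trimmed mean of M values (TMM). It was 58.7 ± 5.57 for C, 54.7 ± 3.53 for AS, 48.5 ± 4.81 for RS3 and 49.8 ± 1.49 CPM for RS7 rats (mean ± SD, n = 5 each). The C group stood highest, and both repeatedly stressed groups stood below the AS group. The 5 C rats had 54.1, 65.3, 59.2, 62.7 and 52.2 CPM (rats 19, 21, 22, 23 and 24), and the AS rats had 48.7, 56.5, 56.8, 57.1 and 54.6 CPM (rats 13 to 17). AS rat 13 lay apart from the other AS rats and below every C rat. Among RS3 rats the values were 55.4, 43.6, 48.9, 50.3 and 44.4 CPM (rats 7, 9, 10, 11 and 12), the widest spread relative to the mean of any group (9.92%), with RS3 rat 7 inside the C range. Among RS7 rats they were 47.4, 51.2, 50.9, 49.6 and 49.8 CPM (rats 2 to 6), the narrowest spread (2.99%), and every RS7 rat lay below every C rat. These values rest on 491 to 934 reads per rat.

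Utrn stood at 129.3 ± 9.70 for C, 117 ± 6.93 for AS, 111 ± 5.61 for RS3 and 112.9 ± 6.24 CPM for RS7 rats (mean ± SD, n = 5 each). The order of the 4 means was the same as for Col4a1. The C rats had 127.7, 142.4, 135.4, 118.0 and 123.2 CPM and the AS rats 105.3, 116.5, 120.6, 123.2 and 119.2 CPM, in the same order of rats as above. AS rat 13 was again the lowest of its group, and C rats 21 and 22 were the highest of all. The RS3 rats had 115.7, 105.5, 109.5, 117.9 and 106.2 CPM, and the RS7 rats 111.7, 110.4, 123.9, 108.8 and 109.7 CPM. Every RS3 rat lay below every C rat, but only just, with the highest RS3 rat at 117.94 and the lowest C rat at 117.97 CPM. In the RS7 group, rat 4 lay inside the C range and the other RS7 rats lay below it. The Utrn values rest on 1070 to 1891 reads. CPM does not account for transcript length, so the levels of the 2 genes are not compared with each other. In this bulk tissue, fewer cells of a type that expresses a gene and less of its RNA per cell cannot be told apart.

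**Figure D1:**
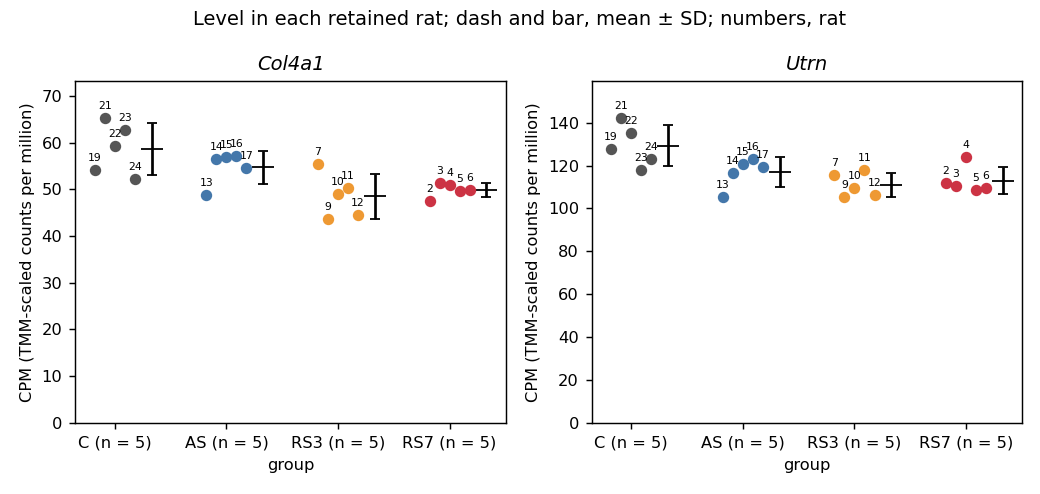
Level of Col4a1 and Utrn (TMM-scaled CPM, axes from 0) in each of the 20 retained rats by group, with rat numbers; the dash and bar give the mean ± SD of 5 rats. All RS7 rats lie between 47.4 and 51.2 CPM for Col4a1, below the lowest C rat at 52.2, whereas RS7 rat 4 lies at 123.9 CPM for Utrn, inside the C range.

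The comparisons of the C group with the repeatedly stressed groups gave the values that the choice of the genes rests on. Col4a1 was lower than in the C group by a log2 fold change of -0.28 (SE 0.068) in the RS3 group and -0.23 (SE 0.067) in the RS7 group, from edgeR's quasi-likelihood fit of the 4 groups. That corresponds to levels changed by -17.4% and -15.0%. For Utrn the log2 fold change was -0.22 (SE 0.056) in C versus RS3 and -0.19 (SE 0.055) in C versus RS7, or -14.1% and -12.5%. All of them are small changes, and for scale the middle 90% of the 16202 genes tested had log2 fold changes from -0.31 to 0.28 in C versus RS3 and from -0.40 to 0.28 in C versus RS7. For Col4a1 the C rat was the higher of the pair in 23 of the 25 pairs of a C and an RS3 rat and in all 25 pairs of a C and an RS7 rat. For Utrn it was the higher in all 25 pairs with RS3 rats and in 23 of 25 with RS7 rats. Groups that did not overlap, with the second group lower, were found for 1.07% of genes in C versus RS3 and 1.53% in C versus RS7. The choice of the members used these comparisons, so nothing is read from that difference.

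The comparison of the C with the AS group asks whether a single noise exposure was accompanied by a difference a day later. It was not used to choose the genes, although it shares the C rats with the comparisons that were. Both genes were chosen for levels that were higher in these C rats than in the RS3 and RS7 rats. The C versus AS values therefore also lean downward by the choice, and their p-values are not free of it. Col4a1 had a log2 fold change of -0.10 (SE 0.067, unadjusted p = 0.156, Benjamini-Hochberg adjusted p = 0.613, edgeR quasi-likelihood test), with the C rat higher in 17 of 25 pairs. For Utrn the value was -0.14 (SE 0.056, unadjusted p = 0.0165, adjusted p = 0.461, edgeR quasi-likelihood test), with the C rat higher in 22 of 25 pairs. Neither difference passed the threshold of 0.05, and neither did that of any other gene, so that 0% of the 16202 genes were called with 10% at an unadjusted p under 0.05 in edgeR. The share called was likewise 0% with DESeq2 and limma-voom.

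The stressed groups were compared with each other in the same fit. These comparisons share the RS3 and RS7 rats with those that chose the genes. Both genes were chosen for low levels in these rats. The values against the AS group therefore lean downward by the choice, and their p-values are not free of it. In AS versus RS3, Col4a1 had a log2 fold change of -0.18 (SE 0.068, unadjusted p = 0.0145, adjusted p = 1.00, edgeR), and the AS rat was higher in 21 of 25 pairs. Utrn differed by -0.08 (SE 0.055, adjusted p = 1.00, edgeR). Neither was called, nor was any other gene by edgeR (0% of genes, with 4.61% at an unadjusted p under 0.05), while DESeq2 called 0.0164% of genes and limma-voom 0%. The AS versus RS7 comparison had the most calls of the 6, at 1.67% of genes with edgeR, 3.9% with DESeq2 and 4.76% with limma-voom, and the members were not among them with any of these. There Col4a1 had a log2 fold change of -0.14 (SE 0.067, adjusted p = 0.317, edgeR) and Utrn of -0.05 (SE 0.055, adjusted p = 0.71, edgeR). Between the RS3 and RS7 groups the values were 0.04 (SE 0.067, adjusted p = 0.899, edgeR) for Col4a1 and 0.03 (SE 0.055, adjusted p = 0.924, edgeR) for Utrn, each smaller than its standard error. No gene was called in RS3 versus RS7 by edgeR, DESeq2 or limma-voom (0%, with 7.52% at an unadjusted p under 0.05 in edgeR). After adjustment over all genes tested, then, neither gene was called in any comparison outside those that chose the genes. The comparisons of the C group with the RS3 and RS7 groups are given without a test.

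**Figure D2:**
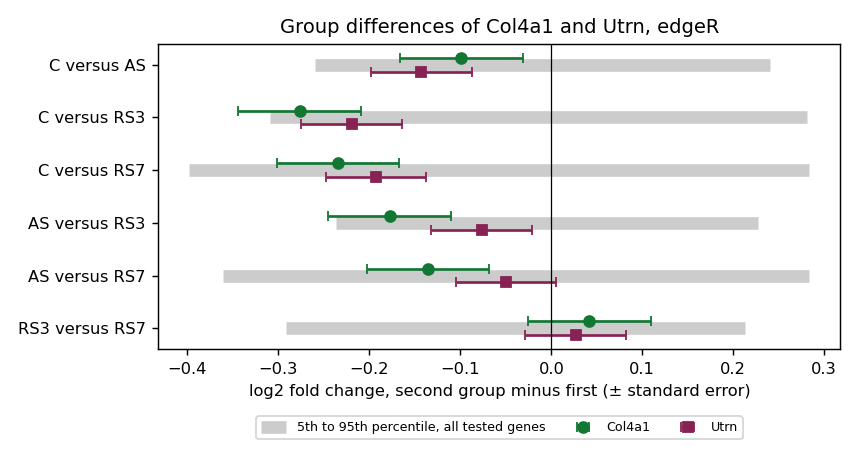
Log2 fold change of Col4a1 (circles) and Utrn (squares) in the 6 group comparisons, second group minus first, with standard errors from edgeR's fit of 20 rats; grey bars span the 5th to the 95th percentile of all 16202 genes. Both genes lie below 0 in the 3 comparisons with the C group, and within 0.05 of 0 in RS3 versus RS7.

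The reads behind each value set a limit to these comparisons. At mean counts of 667.5 reads for Col4a1 and 1485 for Utrn, counting alone gives a coefficient of variation of 3.87% and 2.60%. The coefficient of variation between rats that edgeR estimated was 6.89% for Col4a1 and 6.10% for Utrn, below the median of 7.99% over all genes tested. The levels nevertheless moved with depth. The total count of a rat had a Pearson correlation of -0.59 with log2 CPM of Col4a1 (Spearman -0.61) and of -0.57 with that of Utrn (Spearman -0.51), and as deviations from the group means -0.48 and -0.49. Without the 2 rats farthest in total count the values over all rats were -0.34 for both. The median total was 11298078 reads for C, 11858909 for AS, 12188012 for RS3 and 14189794 for RS7 rats. With all libraries thinned to 8087697 counts, the log2 fold changes in C versus RS3 and C versus RS7 were -0.24 and -0.24 for Col4a1 and -0.22 and -0.15 for Utrn. Thinning makes the totals equal but leaves the expected share of each gene within a library as it was. It therefore cannot show what part depth had in the levels, which was not tested.

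Another property of the libraries moved with the levels. The share of counts taken by the 10 most abundant genes was 20.1% and 20.3% in C rats 21 and 22 and 18.8% in RS7 rat 4, and 12.4% to 14.9% in the other 17 retained rats. Those 3 rats were also the rats with the highest Utrn level in their groups. Their TMM factors were 0.920 to 0.930, against 0.979 to 1.04 in the other retained rats. Over the 20 rats the share had a Pearson correlation of 0.76 with log2 CPM of Utrn (Spearman 0.61) and of 0.49 with that of Col4a1 (Spearman 0.44). Without the 2 rats farthest in the share the Pearson values were 0.46 for Utrn and 0.11 for Col4a1. As deviations from the group means, over all 20 rats, they were 0.75 for Utrn and 0.40 for Col4a1. Without the 2 rats farthest in the deviation of the share, these were 0.70 and 0.48. With CPM taken from the library totals, without TMM factors, the correlation with the share was 0.40 for Utrn and 0.16 for Col4a1. These correlations are descriptions over rats that share library preparation and scaling.

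Leaving out C rats 21 and 22, the C group mean was 56.3 ± 5.61 CPM for Col4a1 and 123 ± 4.86 CPM for Utrn (SD, n = 3). Without these rats and RS7 rat 4, the log2 fold change of Col4a1 was -0.22 (SE 0.073) in C versus RS3 and -0.18 (SE 0.076) in C versus RS7, and that of Utrn -0.15 (SE 0.051) and -0.15 (SE 0.053). With the share as a covariate, Utrn was at -0.13 (SE 0.046) in C versus RS3, and with library totals in place of TMM factors at -0.16 (SE 0.052). C versus RS7 moved less with the scaling, to -0.23 for Col4a1 and -0.19 for Utrn with library totals. On that scale the C and RS7 groups did not overlap for either gene, as for 1.77% of all genes with the RS7 group lower, and in C versus RS3 the C rat was higher for Utrn in 24 of 25 pairs. The choice of the members used these comparisons, so nothing is read from it. What part the libraries had in the size of the difference was not tested.

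**Figure D3:**
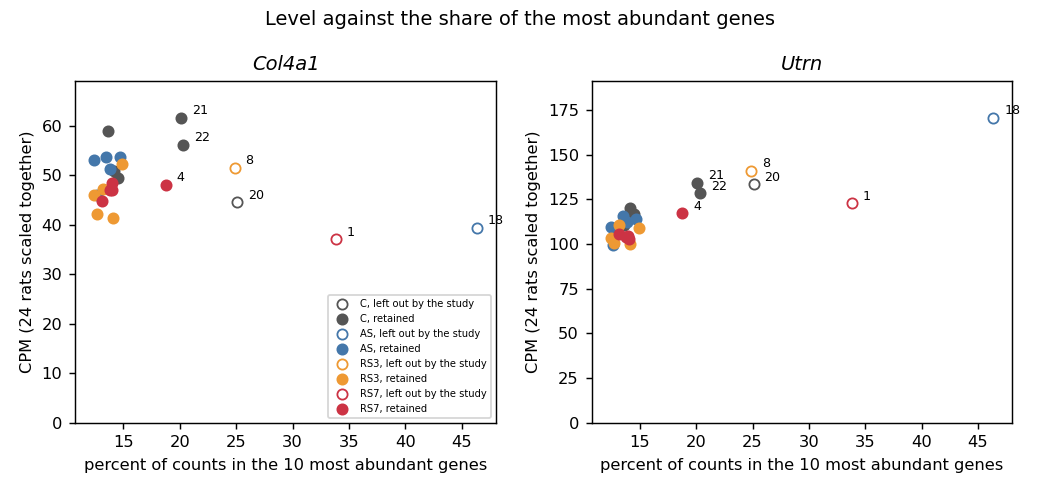
Level of Col4a1 and Utrn (CPM with all 24 rats scaled together by TMM, axes from 0) against the percent of counts in the 10 most abundant genes; filled points are the 20 retained rats, open points the 4 rats that the study left out, and numbers name the rats spoken of in the text. Utrn reaches 170.8 CPM in AS rat 18, where the share is 46.3%, and Col4a1 falls to 39.4 CPM in the same rat.

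The 4 rats that the study left out were not used in choosing the genes. They were rats 20 (C), 18 (AS), 8 (RS3) and 1 (RS7), with 25.1%, 46.3%, 24.9% and 33.8% of counts in the 10 most abundant genes. Scaled together with the others by TMM, their Col4a1 levels were 44.6, 39.4, 51.6 and 37.1 CPM, or 80.4%, 76.4%, 113% and 78.8% of the mean of the retained rats in their own groups. AS rat 18 and RS7 rat 1 lay below all 20 retained rats. Their Utrn levels were 133.5, 170.8, 140.9 and 122.8 CPM, or 109%, 155%, 134% and 115% of their own group means, and AS rat 18 and RS3 rat 8 lay above all 20 retained rats. The direction for Utrn depends on the scaling, since the TMM factors of these rats were as low as 0.551. By library totals the same Utrn counts were 94.5%, 78.5%, 110% and 81.3% of the own group means, and those of Col4a1 69.5%, 38.7%, 92.5% and 55.7%.

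The ratio of the counts of the 2 genes within a rat does not depend on any scaling of the libraries. Per 100 Utrn counts the retained rats had 41.0 to 53.2 Col4a1 counts, with means of 45.5 ± 4.52 for C, 46.8 ± 1.08 for AS, 43.7 ± 2.69 for RS3 and 44.2 ± 2.31 for RS7 (SD, n = 5). The groups overlapped on this measure, and the ratio differed between group means by less than the SD of the C group. The 4 rats left out had 33.4, 23.1, 36.6 and 30.2 Col4a1 counts per 100 Utrn counts, each below all 20 retained rats. The ratio shows an unequal shift of the 2 genes in those libraries and not which gene moved. With all 24 rats in the fit, Col4a1 was at -0.20 (SE 0.088) in C versus RS3 and -0.24 (SE 0.088) in C versus RS7, and Utrn at -0.16 and -0.18 (SE 0.10 for both).

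Over the 20 retained rats, Col4a1 and Utrn had a Pearson correlation of 0.79 in log2 CPM (Spearman 0.78), and of 0.61 as deviations from their group means. Without the 2 rats farthest in the Col4a1 deviations, the value within groups was 0.48. With the share of the 10 most abundant genes removed as well, it was 0.50 over all 20 rats. Without the 2 rats farthest in the Col4a1 values that then remained, it was 0.18. The value within groups thus rests in part on few rats. From library totals without TMM factors the correlations were 0.79, and 0.58 within groups. Both genes were chosen for being lower in the same groups, so the values over all rats are partly set by the choice. Among the 16201 other genes tested, Utrn was at rank 17 in likeness to Col4a1 over all rats and at rank 350 as deviations from group means, and Col4a1 was at ranks 194 and 1119 in likeness to Utrn.

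Col4a2, which encodes the partner chain of Col4a1, was at rank 102 in likeness to Col4a1, with a correlation of 0.72, or 0.67 within groups. Its rank in likeness to Utrn was 1905. By deviations from group means these ranks of Col4a2 were 147 and 2072. The 778 tested genes with a symbol had all been called by the study in some comparison. Of these, the genes most like Col4a1 were Zfp958 (0.83), Cd38 (0.81), Zfp384 (0.81), Utrn (0.79) and L3mbtl1 (0.78). Among all 16201 other genes they were at ranks 5, 8, 11, 17 and 28, so genes without a symbol were more alike. Cd38 encodes a membrane enzyme that consumes NAD, and Zfp384 a zinc finger protein. Those most like Utrn were Dynlt1 (0.93), Aqp4 (0.89), Zfp384 (0.88), Phyhipl (0.87) and Spry3 (0.86). Dynlt1 encodes a light chain of dynein, and Aqp4 the water channel of astrocyte endfeet, which is anchored there through the dystrophin complex. Dynlt1 was at rank 1 of all 16201 genes and Aqp4 at rank 10, and as deviations from group means they were at ranks 17 and 22. By those deviations Aqp4 was at rank 52 in likeness to Col4a1, with a correlation of 0.73. Zfp384 was in both lists. Without the 2 rats farthest in Utrn, the correlation of Utrn with Aqp4 was 0.76. C rats 21 and 22 and RS7 rat 4 also had the highest Aqp4 levels of their groups (1305, 1127 and 1052 CPM). In these rats the share of the 10 most abundant genes was high, and its part in the likeness of Utrn and Aqp4 was not tested.

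**Figure D4:**
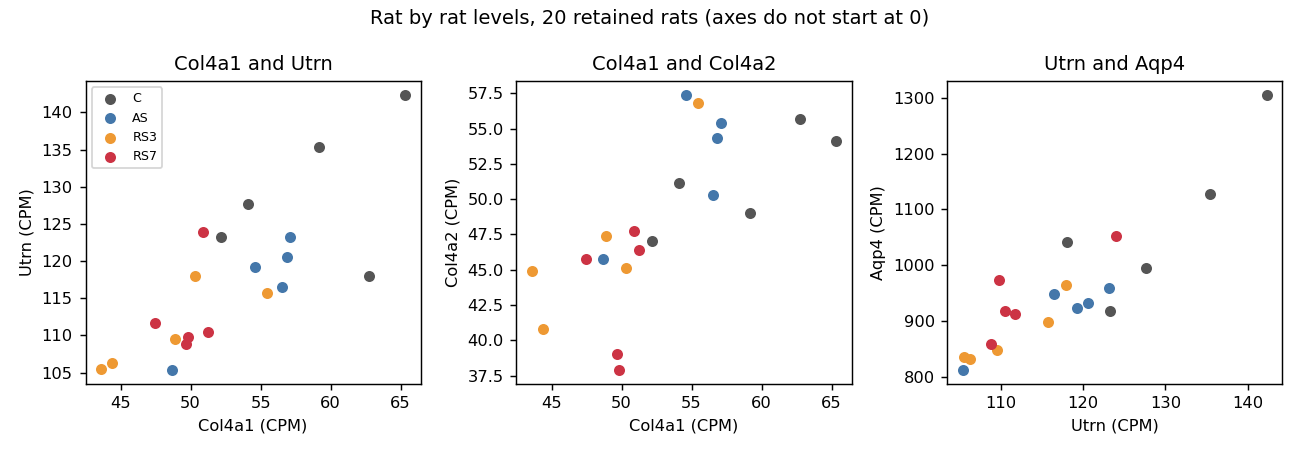
Levels (CPM, axes do not start at 0) of pairs of genes in the 20 retained rats, coloured by group: Col4a1 with Utrn (r = 0.79 in log2 CPM), Col4a1 with Col4a2 (r = 0.72) and Utrn with Aqp4 (r = 0.89). C rats 21 and 22 are the points at the upper right of the Utrn and Aqp4 panel.

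Other genes of the basement membrane could be followed only in part, because the table lists Ensembl identifiers and symbols were taken from the study's table of differentially expressed genes. Of 24 basement membrane genes listed, 5 had an identifier, as did 3 of 18 genes of collagen processing and 3 of 26 of the dystrophin complex and matrix receptors. Each was thus called by the study in some comparison, and their counts are no independent evidence of a direction. All of them passed the filter on low counts.

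Col4a2 encodes the other chain of the trimer. Its level was 51.4 ± 3.56 for C, 52.6 ± 4.63 for AS, 47.0 ± 5.98 for RS3 and 43.4 ± 4.55 CPM for RS7 rats (SD, n = 5). The log2 fold change of Col4a2 was 0.03 (SE 0.082) in C versus AS, -0.13 (SE 0.082) in C versus RS3 and -0.24 (SE 0.082) in C versus RS7, and none was called (edgeR adjusted p = 0.922, 0.416 and 0.134). Whether it differed from Col4a1 in any comparison was not tested. Lama3, a laminin alpha chain, had log2 fold changes of -0.19 (SE 0.15), -0.33 (SE 0.15) and -0.58 (SE 0.15) in the same comparisons, at levels of 4.48 to 9.58 CPM. Agrn, which encodes the heparan sulfate proteoglycan agrin, had 0.10, -0.01 and -0.14 (SE 0.067 each). Lamb1, a laminin beta chain, stood in the other direction in the RS7 group, at -0.05 (SE 0.088), 0.06 (SE 0.087) and 0.28 (SE 0.086).

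Of the 4 basement membrane genes other than Col4a1, 0 were called by edgeR in the comparisons with the C group. There, 0% of genes were called in C versus AS and in C versus RS3 and 0.148% in C versus RS7 (0.636% with limma-voom). At an unadjusted p under 0.05 the shares of all genes were 10%, 16.3% and 17.9%. Without Col4a1, which was chosen on these comparisons, the median log2 fold change of the 4 other genes was -0.01, -0.07 and -0.19 in C versus AS, C versus RS3 and C versus RS7, beside medians of 0.00, 0.00 and -0.01 over all genes. These 4 genes have an identifier only because the study had called each of them, so their calls and medians are no independent evidence. In AS versus RS7 their median was -0.26, and 1 of the 4 was called, beside 1.67% of all genes. Lamb1 rose there by a log2 fold change of 0.33 (SE 0.085, edgeR adjusted p = 0.0459). Agrn (-0.23, adjusted p = 0.0682) and Col4a2 (-0.28, adjusted p = 0.0784) were not called by edgeR there.

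All 3 genes of collagen processing with an identifier were called by edgeR in AS versus RS7 (1.67% of all genes) and none in the comparisons with the C group (0% to 0.148%), but each has an identifier only because the study had called it. P4ha2, a subunit of the prolyl 4-hydroxylase that stabilises collagen helices, fell by 0.32 (SE 0.075, edgeR adjusted p = 0.0283). P3h3, a member of the prolyl 3-hydroxylase family, fell by 0.42 (SE 0.11, edgeR adjusted p = 0.0440). Lox, the lysyl oxidase that crosslinks fibrillar collagen and elastin, rose by 0.93 (SE 0.21, edgeR adjusted p = 0.0310). In C versus RS7 their log2 fold changes were -0.25, -0.43 and 0.53 in that order, and Col4a1 was at -0.23.

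Beside Utrn, the list of the dystrophin complex and matrix receptors held Aqp4 and Itgav. Neither Aqp4 nor Itgav was called by edgeR in any of the 6 comparisons. Of all genes, 1.67% were called in AS versus RS7, 0.148% in C versus RS7 and 0% in the others. Aqp4 had log2 fold changes of -0.23 (SE 0.074) in C versus AS, -0.30 (SE 0.075) in C versus RS3 and -0.19 (SE 0.074) in C versus RS7, near those of Utrn. Its group means were 1077, 915.4, 875.8 and 943.2 CPM for C, AS, RS3 and RS7. Itgav, the integrin alpha V chain, stood at -0.14 (SE 0.084), 0.01 (SE 0.083) and 0.14 (SE 0.083).

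**Figure D5:**
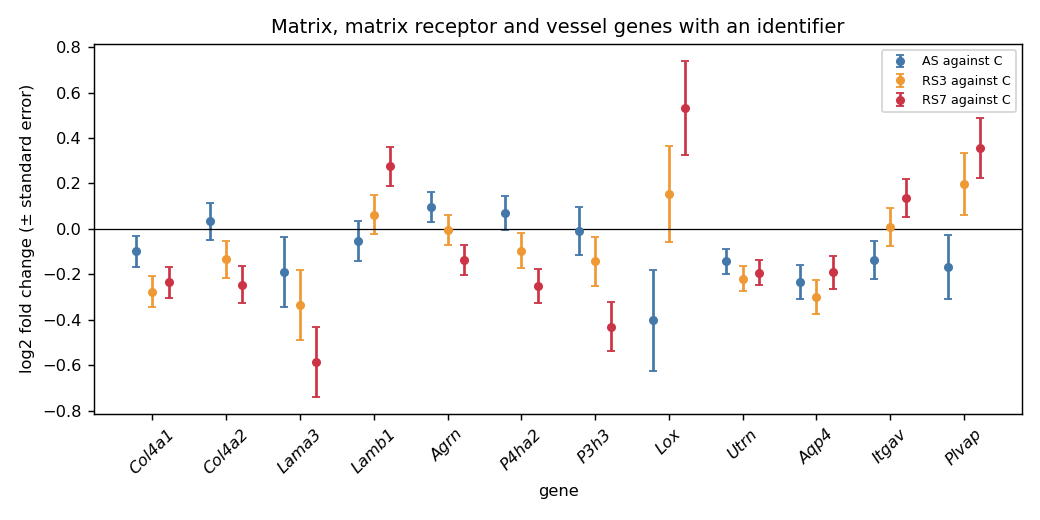
Log2 fold change against the C group (± standard error, edgeR) of the 12 matrix, matrix receptor and vessel genes with an identifier in the AS, RS3 and RS7 groups. Utrn and Aqp4 lie below 0 in all 3 groups and so do Col4a1, Lama3 and P3h3, whereas Lamb1, Lox, Plvap and Itgav lie above 0 in the RS7 group.

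Markers of the cells and tissue in the blocks were counted beside these genes. Each marker with an identifier had been called by the study in some comparison, so the levels and sums are no independent evidence of a direction. Of 12 endothelial markers only Plvap, a protein of fenestrated endothelium, had an identifier, and of 9 pericyte, 7 meningeal fibroblast and 4 choroid plexus and ependymal markers 0 had one, so the vessel content of the blocks could not be followed. Plvap ranged from 7.09 to 10.3 CPM for C, 6.39 to 8.77 for AS, 7.67 to 13.3 for RS3 and 9.34 to 13.1 for RS7, and its correlation with Col4a1 was -0.47 over all rats and -0.23 as deviations from group means. The summed level of 3 of 6 astrocyte markers was 1888 to 2295 CPM for C, 1751 to 1945 for AS, 1790 to 1895 for RS3 and 1751 to 2033 for RS7. Its members differed in C versus RS7, with log2 fold changes of -0.19 for Aqp4, -0.10 for Slc1a3 and 0.20 for Slc1a2, none called by edgeR. The sum of 5 of 7 neuronal markers was 2808 to 3130 CPM for C, 2710 to 3032 for AS, 2773 to 3026 for RS3 and 2838 to 3148 for RS7. Snap25 alone had a mean of 1553 CPM for C, and in C versus RS7 the members went both ways, with Gad1 at -0.63, Gad2 at -0.61, Slc32a1 at -0.42, Slc17a6 at 0.38 and Snap25 at 0.12, none called by edgeR. In AS versus RS7, where 1.67% of genes were called, Slc1a2, Snap25, Plvap and the thalamic marker Rora were called higher and Gad1 lower. Rora had the largest of these changes, at a log2 fold change of 1.14 (SE 0.21, edgeR adjusted p = 0.0117). The summed level of 3 of 3 thalamic markers was 84.9 to 127.8 CPM for C, 78.1 to 122.1 for AS, 84.2 to 148.5 for RS3 and 122 to 174.4 for RS7. That of 4 of 4 hypothalamic markers was 28.2 to 51.2, 35.6 to 51.6, 22.7 to 41.5 and 21.4 to 35.4 CPM in the same order. None of these markers was at 0 in any retained rat. The thalamic range stood highest and the hypothalamic range lowest in the RS7 group, each overlapping the C range, with Isl1, Gal and Sim1 lower and Lhx9 higher in mean level than in the C group. What part this had in the lower Col4a1 and Utrn levels was not tested.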

How the data were processed

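The authors trimmed the reads with Trimmomatic 0.36, mapped them to the rn6 rat genome with HISAT2 2.0.5 and deposited 1 table of raw counts per Ensembl gene (featureCounts of Subread), 24 rats by 32883 genes, without pooling of rats. How strand and multiply mapped reads were handled is not given in the sources used here, so reads from overlapping or antisense genes and near-identical copies cannot be told apart. The authors' table of fold changes and p-values was read only for symbols of 778 identifiers and for its mean counts, from which the 4 rats left out were identified: of 1296 sets with 1 rat left out per group, 1 gave the mean of all 808 genes listed (relative tolerance 1e-07), and the next best gave 0. The RefSeq table supplied held no Ensembl identifiers.

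In R 4.3.3, edgeR 4.0.16 (filterByExpr with a minimum count of 10, TMM, robust quasi-likelihood test, 4 groups in 1 fit) was run on 16202 genes with Benjamini-Hochberg adjustment within each comparison and a threshold of 0.05. Log2 fold changes are the second group named minus the first. Log2 CPM used a prior count of 2. The genes named are the 2 members, every gene with an identifier on the lists of basement membrane, collagen processing, dystrophin complex and marker genes, and the 5 genes with a symbol most like each member. The members and lists were chosen with earlier results of these data known. The alternatives were DESeq2 1.42.0, limma-voom 3.58.1 with sample quality weights, DESeq2 size factors, no filter, all 24 rats, only the groups compared, thinning to 8087697 counts, a covariate for the part of all counts in the 10 most abundant genes, leaving out 3 rats with a high share, and leaving out each rat in turn. That covariate in all 24 rats and library totals without TMM factors were chosen after seeing the data. Plasma corticosterone, in situ hybridization and protein sequences were not analysed here.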

Additional observations from a re-analysis of the deposited data

Results flagged for a closer look

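In 4 of 16 sets examined (each gene in each group, among the retained rats and among all 24), 1 rat stood apart from the others of its group, as its gap to the nearest rat was a larger part of the range of the group than Dixon's 95% critical value allows (0.71 for 5 rats, 0.625 for 6). Chance alone sets a rat apart in about 1 set in 20, and the sets share rats. Among the 20 retained rats, RS7 rat 4 had the highest Utrn level of the RS7 group (123.9 CPM), with a gap of 0.8088 of the range. The 10 most abundant genes took 18.8% of its counts, which was also the highest of the retained RS7 rats.

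The other cases arose only with all 24 rats, scaled together by TMM, and each was a rat that the study had left out. AS rat 18 had the highest Utrn level of the AS group (170.8 CPM, a gap of 0.7738 of the range) and RS3 rat 8 the highest of the RS3 group (140.9 CPM, 0.7348). RS7 rat 1 had the lowest Col4a1 level of the RS7 group (37.1 CPM, 0.6906). By library totals AS rat 18 stood below every retained rat for Utrn (94.0 CPM).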

How the results depend on the processing

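Over the 11 alternatives other than leaving out single rats, Col4a1 stayed between -0.28 and -0.20 in C versus RS3 and between -0.24 and -0.18 in C versus RS7, and Utrn between -0.22 and -0.12 and between -0.19 and -0.14. The values that moved most were those of Utrn in C versus RS3, at -0.13 with the share of the 10 most abundant genes as a covariate and -0.12 with that covariate in all 24 rats. Without each retained rat in turn, the ranges in C versus RS3 and C versus RS7 were -0.32 to -0.24 and -0.27 to -0.20 for Col4a1, and -0.25 to -0.19 and -0.22 to -0.16 for Utrn. No alternative called either gene in the other comparisons. There, Col4a1 ranged from -0.14 to -0.06 in C versus AS, -0.23 to -0.14 in AS versus RS3 and -0.18 to -0.12 in AS versus RS7 without each rat in turn, and Utrn from -0.17 to -0.11, -0.11 to -0.06 and -0.09 to -0.03. The other alternatives brought C versus AS as near to 0 as -0.03 for Col4a1 (library totals) and -0.05 for Utrn (covariate). Utrn in AS versus RS7 was at -0.12 in all 24 rats, -0.11 with library totals, -0.09 with the covariate and -0.015 in thinned libraries, with adjusted p from 0.222 to 0.943 over all alternatives.

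In RS3 versus RS7, where both values were near 0, the sign changed under several alternatives, and no direction can be given. Col4a1 was at -0.038 in all 24 rats, -0.0017 in thinned libraries, -0.012 with the covariate in all 24 rats and -0.0090 with library totals. Utrn was at -0.016 in all 24 rats, -0.014 with the covariate, -0.0055 without C rats 21 and 22 and RS7 rat 4, -0.059 with the covariate in all 24 rats and -0.025 with library totals. Without each rat in turn Col4a1 ranged from 0.0043 to 0.092 and Utrn from -0.0050 (without RS7 rat 4) to 0.050. Library totals without TMM factors moved the median of all genes by 0.06 in C versus AS and by -0.06 in AS versus RS7. The cause of these changes was not tested.

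The number of genes called depends on the test. EdgeR, DESeq2 and limma-voom called 0, 36 and 0 genes in C versus RS3, 24, 405 and 103 in C versus RS7, and 270, 579 and 772 in AS versus RS7. No paired analysis was possible because the rat numbers are unique to each rat and shared by no groups. Both 5 rats per group and the depth, which moved with the levels, limit these values.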

Other observations

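The ratio of the collagen IV chains was outside its usual range in 3 of the 4 libraries that the study left out. Per 100 Col4a1 counts the 20 retained rats had 76.1 to 105.1 Col4a2 counts, and rats 20 (C), 18 (AS), 8 (RS3) and 1 (RS7) had 85.3, 38.8, 69.2 and 57.3, of which the last 3 lay below all retained rats. Per 100 Utrn counts, Col4a2 was at 28.5, 8.97, 25.3 and 17.3 counts in these 4 rats, against 34.5 to 49.1 in the retained rats. Agrn was at 81.4%, 52.5%, 84.3% and 68.2% of the own group mean after TMM scaling, and Aqp4 at 113%, 205%, 132% and 133%. By library totals, Agrn was still lower, at 70.2%, 26.6%, 69.3% and 48.2%, while Aqp4 was at 98.2%, 104%, 109% and 94.4%. What sets these libraries apart was not tested. Among the retained rats, the tested genes with a symbol whose log2 CPM was most opposed to that of Utrn were Abhd8 (r = -0.97) and Pgk1 (r = -0.96), named after their values were seen.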
